A study of Homo sapiens with 39 samples.

Results

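The coagulation and plasminogen activation genes described here are F7, F10, PROZ, F3, F5, F12, TFPI, TFPI2, PLAU and PLAUR. These 10 genes were taken by name from the 45435 rows of the expression tables, and all 10 were found. They were measured by poly(A) RNA-seq in HCT116, a line derived from a human colorectal carcinoma, with 39 libraries in 13 groups of 3. The control group was the parental Flp-In T-REx HCT116 line with no HNF4A construct, kept earlier in blasticidin and zeocin. Each of the other 12 groups was 1 stable HCT116 Flp-In T-REx line carrying 1 isoform of hepatocyte nuclear factor 4 alpha (HNF4A), numbered 1 to 12 and fused to GFP at its C-terminus, kept earlier in blasticidin and hygromycin B. All 13 groups, parental cells included, received doxycycline at 2.5 µg/ml for 48 h without the selection antibiotics. Each isoform is represented by 1 line and no group expressed GFP alone, so the isoform, its GFP tag, the earlier antibiotic and the derivation of the line cannot be told apart.

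Blood coagulation is a cascade of serine proteases, most of them made by the liver. Tissue factor, encoded by F3, is the cell-surface receptor that binds factor VII, and this complex activates factor X, which with its cofactor factor V forms thrombin. Plasminogen activation works on the opposite side: urokinase, encoded by PLAU, is held at the cell surface by its receptor, encoded by PLAUR, and converts plasminogen to plasmin, which dissolves fibrin and degrades matrix. HNF4A is a nuclear receptor of liver and gut that is known to bind and activate promoters of several liver coagulation genes, F7 and F10 among them. By the standard nomenclature of the isoforms, which the labels do not give, isoforms 1 to 6 start at promoter P1 and 7 to 12 at promoter P2. In the same nomenclature 4 to 6 carry an added exon 1B, 2, 5, 8 and 11 carry a short insertion, and 3, 6, 9 and 12 have a short C-terminus.

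F7, F10 and PROZ lie side by side on chromosome 13 (GENCODE 29, GRCh38, plus strand): F7 from 113105788 to 113120681, F10 from 113122814 to 113149529 and PROZ from 113158654 to 113172383. The gap between F7 and F10 is 2133 bases and that between F10 and PROZ 9125 bases. The sequences below are shown because HNF4A is known to bind motifs of the kind CAAAGTCCA, and a search of the RefSeq promoters (GRCh38.p14, 250 bases before to 50 after each start) found its core, CAAAGT, in 4 of the 10 members. Each stretch is 30 bases of the plus strand, 5′ to 3′, and the capitals mark the core, which lies on the opposite strand and so reads ACTTTG.
F7, chr13:113105767-113105796: tggaggcagagaACTTTGcccgtcagtccc
F10, chr13:113122788-113122817: gctggggcgtggACTTTGctccagcagcct
PROZ, chr13:113158605-113158634: cccccagcctggACTTTGgctgtgtttgta
PLAU, chr10:73910372-73910401: ttatgccctaggACTTTGttcccacaatcc
The core lay at positions 2 to 7 of F10, -12 to -7 of F7, -31 to -26 of PROZ and -226 to -221 of the first of the RefSeq starts of PLAU, counted from the RefSeq start as position 1 with no position 0. The whole motif CAAAGTCCA, or TGGACTTTG on the other strand, was found in F10 (-2 to 7) and in PROZ (-34 to -26). CAAAGTTCA, a second form searched on both strands, was found in none of the members' promoters. Both long forms contain the core. Of 35116 RefSeq promoters of this length, 0.384% held CAAAGTCCA, 0.296% held CAAAGTTCA and 11.9% held CAAAGT. A match of letters is a description of the window and not a measured binding site.

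The remaining members are spread over the genome (GENCODE 29, GRCh38). F3 lies on chromosome 1 from 94529225 to 94541800 and F5 on the same chromosome from 169514166 to 169586588, both on the minus strand. F12 lies on chromosome 5 from 177402140 to 177409576 (minus strand) and shares bases with GRK6 on the other strand. TFPI is on chromosome 2 from 187464230 to 187565760 and TFPI2 on chromosome 7 from 93885396 to 93890991, both on the minus strand. PLAU is on chromosome 10 from 73909177 to 73917497 (plus strand), where C10orf55 overlaps it on the minus strand, and PLAUR is on chromosome 19 from 43646095 to 43670547 (minus strand).

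The level of each gene is given in TPM, a transcript's share of its library, a unit scaled to gene length and to the library, so levels may be compared between genes. HNF4A, summed over its 12 rows, was at 31.5 TPM ± 0.59 (SD, n = 3) in parental cells, and the line with the lowest mean was isoform 2, at 613.5 TPM. The highest mean was that of isoform 6, at 1071 TPM. Replicate 1 of isoform 3 stood apart, with 407 TPM of HNF4A where replicates 2 and 3 had 833 and 772 TPM. The 5 epithelial markers were present in all 39 libraries, with EPCAM between 432.6 and 624.1 TPM. Of the 10 markers of other cell types, 8 never exceeded 0.66 TPM, among them the hepatocyte genes ALB, FGB and TTR. The exceptions were PECAM1, at 1.14 to 6.43 TPM, and COL1A1, at 7.76 to 14.9 TPM. TPM does not give the read depth of a library.

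By level, the members formed 2 sets. Averaged over the 39 libraries, PLAU stood at 64.2 TPM, PLAUR at 25.3, F12 at 18.7, F10 at 12.9 and F3 at 5.90 TPM. The other 5 averaged under 1 TPM: TFPI at 0.403, PROZ at 0.307, F5 at 0.213, F7 at 0.0829 and TFPI2 at 0.000859 TPM. Differences between groups were tested with limma on the log2(TPM + 1) scale over the 15003 genes that averaged 1 TPM or more, so the first 5 members entered the tests and the latter 5 did not. A gene was called higher or lower at an adjusted p under 0.05 with a difference of at least 1 on that scale, and "rose" and "fell" are used only of such calls. These are bulk libraries, so fewer cells with a transcript and less transcript per cell cannot be told apart.

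F10 encodes factor X, the protease at which the tissue factor and contact branches of the cascade meet. In parental cells its 3 libraries stood at 9.59, 8.60 and 9.58 TPM. The isoform 1 line had 39, 34.7 and 35.3 TPM, isoform 2 had 24.6, 30.5 and 30.3 TPM, and isoform 3 had 15.2, 28.4 and 26.5 TPM. Every library of these lines was above every parental library. F10 rose by 1.86 on the log2 scale with isoform 1 (adjusted p = 2.29e-12), by 1.52 with isoform 2 (2.46e-10) and by 1.20 with isoform 3 (1.72e-07), each ± 0.14 (SE). As ratios of mean TPM these were 3.93-, 3.08- and 2.53-fold. The low F10 value of isoform 3 came from replicate 1, the library with the low HNF4A, and without it F10 was higher by 1.47 ± 0.12 (adjusted p = 3.12e-11).

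F10 was not called in the lines of isoforms 4 to 12. With exon 1B, F10 stood at 10.0, 8.49 and 7.5 TPM (isoform 4), at 10.5, 10.1 and 8.54 TPM (isoform 5) and at 9.32, 8.65 and 8.74 TPM (isoform 6), ranges that overlap the parental one. The HNF4A libraries of these lines lay between 807 and 1109 TPM and those of isoforms 1 to 3 between 407 and 833 TPM, and the part of the HNF4A level in the F10 values was not tested. The lowest levels were in isoform 8 (5.52, 4.43 and 6.17 TPM), isoform 9 (5.27, 6.12 and 7.45 TPM) and isoform 7 (7.01, 7.16 and 6.70 TPM), and all of these libraries were below the parental ones. The differences were -0.69 (adjusted p = 0.000311), -0.50 (0.00994) and -0.36 (0.0423) on the log2 scale, each ± 0.14 (SE), and all fell short of the minimum difference for a call. Isoforms 11 (7.07 to 7.48 TPM) and 12 (6.81 to 8.14 TPM) were also below all parental libraries, whereas isoform 10 (9.23 to 10.1 TPM) overlapped them, and their adjusted p-values were at least 0.099. In the order of the 13 means, isoform 1 did not overlap isoform 2, isoform 3 did not overlap the next line, isoform 5, and each of the lower groups overlapped its neighbour. F10-AS1, an antisense transcript over F10, stayed under 1.3 TPM, and whether the quantification used strand is not given in the sources used here.

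**Figure D1:**
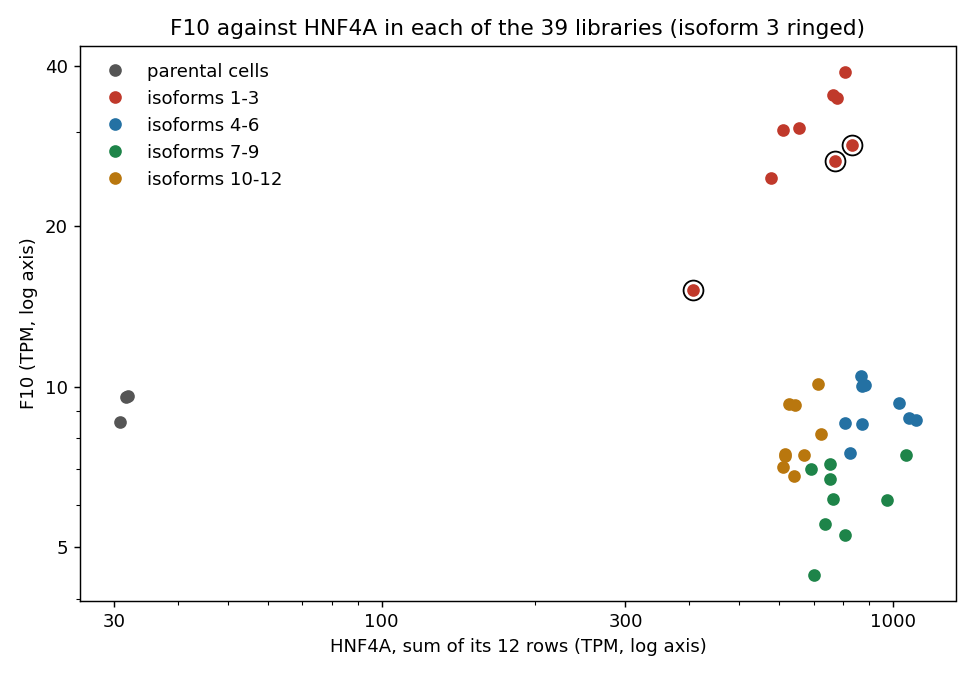
F10 against HNF4A in TPM, both on log axes, 1 point per library, coloured by isoform class, with the 3 isoform 3 libraries ringed. The points of isoforms 1 to 3 lie above 15 TPM of F10 and those of the other lines between 4.43 and 10.5 TPM at HNF4A levels that overlap theirs; the ringed point at 407 TPM of HNF4A is the lowest of its class.

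F3 encodes tissue factor, the trigger of the cascade. Its parental libraries stood at 5.06, 5.73 and 4.10 TPM. With isoform 2 they were 22.1, 21.1 and 21.5 TPM, 4.35-fold higher by mean and clear of every other library of the study. F3 rose there by 1.93 ± 0.11 (SE; adjusted p = 6.72e-15), and no other line was called. The isoform 1 line, which by nomenclature differs from isoform 2 in the insertion, had 5.47, 5.89 and 6.16 TPM, overlapping the parental cells (difference 0.21 ± 0.11, adjusted p = 0.12).

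At the other end of the order, F3 in the isoform 4 line was at 2.77, 2.83 and 2.84 TPM, below all other libraries (difference -0.64, adjusted p = 0.000148, short of the minimum). Smaller differences were measured with isoforms 11, 10 and 12, at -0.42, -0.30 and 0.39, with adjusted p-values of 0.00355, 0.034 and 0.0182. Of these lines only isoform 11 did not overlap the parental range. The remaining lines lay between 3.58 and 5.60 TPM. F12, which encodes the contact-phase protease factor XII, varied least among the 5 tested members, between 15.4 and 22.5 TPM in all 39 libraries. Its differences from parental cells ran from -0.10 to 0.21, and none was called. The limma adjusted p was under 0.05 for isoform 6 (difference 0.21, adjusted p = 0.0202) and isoform 9 (difference 0.17, adjusted p = 0.0289). GRK6, which shares bases with F12, was at 67.8 to 101.9 TPM.

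PLAU encodes urokinase. Parental cells had 77.5, 93.9 and 87.1 TPM. The 3 lines of the exon 1B isoforms were the lowest of the study, at 35.2, 36.3 and 36.1 TPM with isoform 4, at 31.6, 32.6 and 27.3 TPM with isoform 5 and at 29.9, 36.6 and 34.8 TPM with isoform 6. Isoform 6 overlapped isoforms 4 and 5, and none of them overlapped any other group. PLAU fell in all of them. The differences were -1.24 (isoform 4), -1.47 (isoform 5) and -1.33 (isoform 6), each ± 0.08 (SE) with an adjusted p of at most 6.1e-13, or 2.40-, 2.83- and 2.55-fold lower by mean TPM.

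Isoforms 7 to 12 had intermediate PLAU levels, from 46.3 to 68.8 TPM, all below the parental libraries. Their differences ran from -0.35 (isoform 11, adjusted p = 0.000474) to -0.81 (isoform 10, adjusted p = 1.38e-09), and none reached the minimum for a call. Isoform 2 was at the top of the order with 129, 129 and 131 TPM (difference 0.59, adjusted p = 1.52e-07), followed by isoform 1 with 103, 95.1 and 96 TPM (0.19, adjusted p = 0.0385). Both were above all parental libraries and short of a call, and isoform 3, at 80.6, 73.2 and 62.0 TPM, overlapped the parental range. Across single genes such separation from the 3 parental libraries was common: per line, 13.2% to 23.5% of the tested genes lay wholly above them and 15.7% to 42.8% wholly below. C10orf55, on the strand opposite PLAU, had between 0.349 and 2.15 TPM, highest in isoform 2 and lowest in isoforms 4 to 6 by group mean, as PLAU was. Its part in the PLAU values was not tested.

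PLAUR encodes the urokinase receptor. Its libraries stood at 18.5, 18.9 and 17.8 TPM in parental cells, at 50.6, 47.5 and 45.8 TPM with isoform 1 and at 53.7, 53.8 and 49.5 TPM with isoform 2. Those lines overlapped each other and stood clear of all other groups. PLAUR rose by 1.34 ± 0.06 (SE; adjusted p = 2.6e-17) and 1.46 ± 0.06 (adjusted p = 4.64e-18), or 2.61- and 2.85-fold. Next in order were isoform 7 (31.7, 32.5 and 29.1 TPM; difference 0.73, adjusted p = 8.55e-11) and isoform 11 (29.8, 28.4 and 26.0 TPM; 0.58, adjusted p = 1.03e-08), which overlapped each other. Isoform 3, with 23.3, 22.5 and 21.4 TPM, was far below the other P1 forms without exon 1B (difference from parental cells 0.27, adjusted p = 0.0016). The exon 1B lines lay at 13.1 to 16.4 TPM, below all parental libraries, with differences of -0.28 (isoform 4), -0.29 (isoform 5) and -0.36 (isoform 6) and adjusted p-values of 0.00169, 0.00167 and 0.000197. In these lines receptor and protease were both below parental cells. With isoforms 7 to 12 all PLAUR libraries were above the parental ones and all PLAU libraries below them, though for isoform 12 the PLAUR difference was 0.09 (19.4, 20.1 and 19.2 TPM; adjusted p = 0.4).

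**Figure D2:**
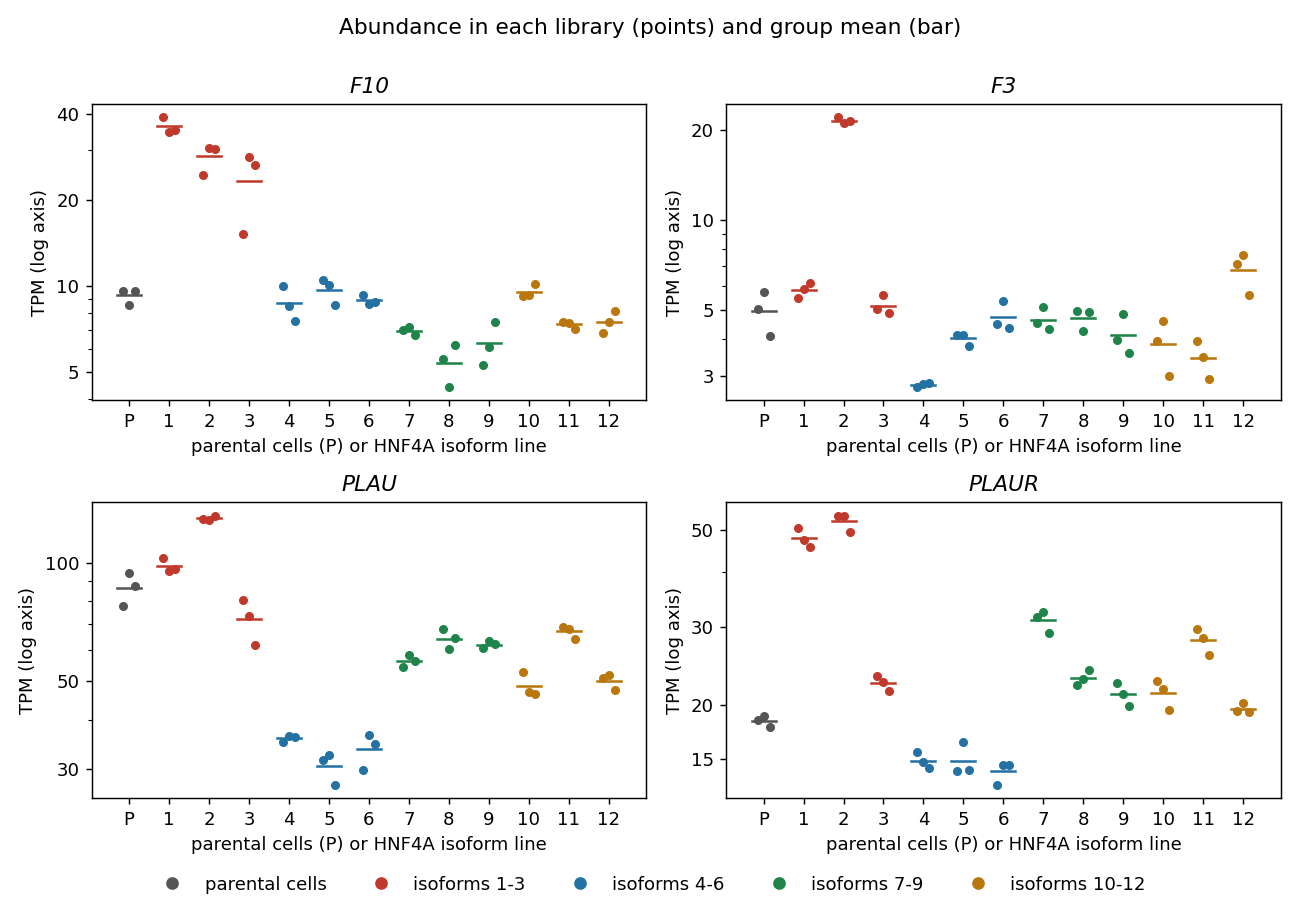
TPM on a log axis for F10, F3, PLAU and PLAUR in parental cells (P) and the lines of isoforms 1 to 12; points are the 3 libraries of a group, bars their mean, colours the isoform class. F10 is high in isoforms 1 to 3, F3 in isoform 2 only, PLAUR in isoforms 1 and 2, and PLAU is lowest in isoforms 4 to 6, at 27.3 to 36.6 TPM.

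Counted per line, 2 of the 5 tested members were called with isoform 1 (F10 and PLAUR, both higher), where 4.52% of all tested genes were called. With isoform 2, 3 members were called higher (F10, F3 and PLAUR; 3.73% of all genes). F10 alone was called with isoform 3 (0.807% of genes). PLAU alone was called, lower, with isoform 4 (0.54%), isoform 5 (0.293%) and isoform 6 (0.247%). No member was called with isoforms 7 to 12, although limma gave adjusted p-values under 0.05 for 18 of their 30 differences. Small differences were common over all genes in these lines. An unadjusted limma p under 0.05 was found for 4175 (isoform 12) to 7036 (isoform 7) of the 15003 tested genes. The share of all genes at an adjusted p under 0.05 is not given here. There the share of all tested genes called was 2.08% (isoform 7), 1.41% (isoform 8), 0.827% (isoform 9), 1.44% (isoform 10), 1.7% (isoform 11) and 0.573% (isoform 12). In the authors' deposited table the called members had log2 fold changes of the same sign: 2.09, 1.71 and 1.53 for F10 with isoforms 1, 2 and 3, 2.18 for F3 with isoform 2, 1.51 and 1.62 for PLAUR with isoforms 1 and 2, and -1.15, -1.42 and -1.21 for PLAU with isoforms 4, 5 and 6. The comparisons share the 3 parental libraries, so a deviation of those libraries would enter all of them. Over the 12 lines, the median of the 5 members ran from -0.30 with isoform 11, where that of all tested genes was -0.06, to 1.46 with isoform 2, where it was -0.09. With isoform 1, in which 2 members were called, it was 0.21 beside -0.11.

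**Figure D3:**
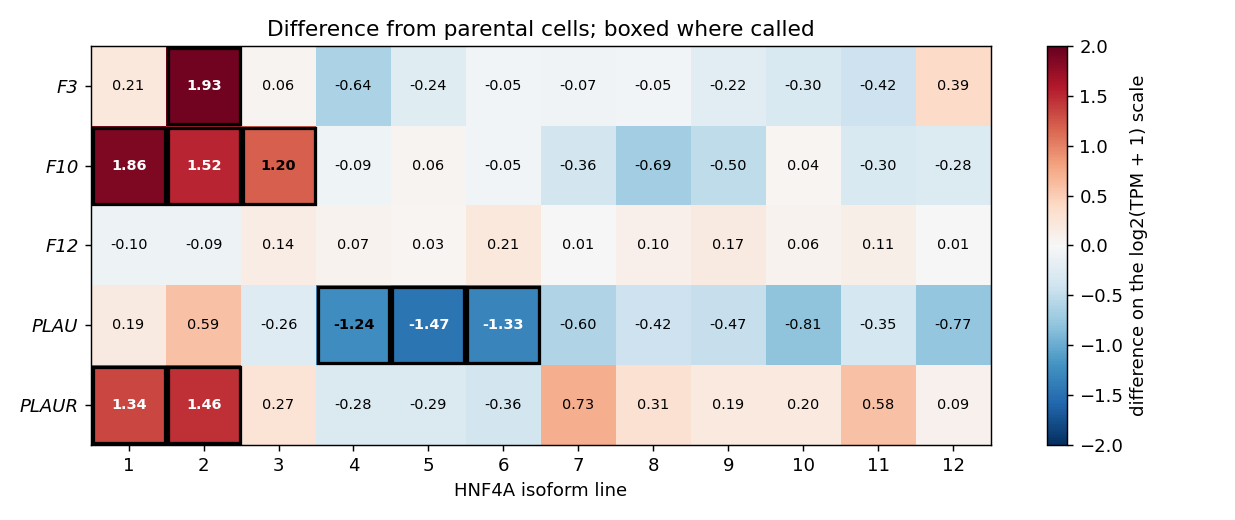
Difference of each line (columns, isoforms 1 to 12) from parental cells on the log2(TPM + 1) scale for the 5 tested members (rows); red is higher, blue lower, and boxes mark calls. The 6 higher calls are in isoforms 1 to 3, the 3 lower calls are PLAU in isoforms 4 to 6, and F12 stays between -0.10 and 0.21.

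The lines were then compared with each other in pairs that differ, by nomenclature, in 1 feature. These contrasts leave out the parental means, but the parental libraries remain in the common fit that gives the spread. Exon 1B was examined first. Isoform 4 minus isoform 1 gave -1.96 for F10 (adjusted p = 8e-13), -1.62 for PLAUR (3.64e-19) and -1.42 for PLAU (8.57e-16), and 4.49% of all genes were called in this pair. Isoform 5 was below isoform 2 in 4 members, with differences of -2.17 for F3, -2.06 for PLAU, -1.75 for PLAUR and -1.46 for F10 and adjusted p-values of at most 5.07e-10 (4.03% of genes called). Between isoforms 6 and 3, both short, the differences were -1.25 for F10 (adjusted p = 8.59e-08) and -1.07 for PLAU (adjusted p = 7.5e-12), with 0.7% of genes called. The PLAU value lost its call without replicate 1 of isoform 3, the library with low HNF4A, or without replicate 1 of isoform 6 (-0.98 in both).

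The P2 forms were set against the matching P1 forms in the same way. F10 differed by -2.23 between isoforms 7 and 1 (adjusted p = 2.83e-13; 1.42% of genes called), by -2.21 between 8 and 2 (2.48e-13; 1.54%) and by -1.71 between 9 and 3 (4.41e-10; 0.56%). F10 was the member called in every pair of this kind. The pair of isoforms 8 and 2 also differed in F3 (-1.98, adjusted p = 1.62e-14), PLAUR (-1.15, 6.14e-15) and PLAU (-1.01, 1.15e-11). That PLAU value lost its call without replicate 3 of isoform 2, where it was just short of the minimum, or replicate 2 of isoform 8 (-0.96). Between isoforms 7 and 1, PLAU differed by -0.79 (adjusted p = 1.86e-09) and PLAUR by -0.61 (4.28e-09), short of the minimum.

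For the insertion, F3 rose by 1.72 ± 0.11 (SE) from isoform 1 to isoform 2 (adjusted p = 3.49e-12; 0.347% of genes called). In the other pairs of this kind the F3 difference was 0.40 from isoform 4 to 5 (adjusted p = 0.0209), 0.02 from 7 to 8 and -0.12 from 10 to 11, and no member was called (0.353%, 0.227% and 0.2% of genes called). For the short C-terminus, PLAUR fell by 1.06 ± 0.06 (SE) from isoform 1 to isoform 3 (adjusted p = 3.48e-14; 1.45% of genes). PLAUR differed by -0.54 from isoform 7 to 9 (adjusted p = 2.24e-07), by -0.08 from 4 to 6 and by -0.11 from 10 to 12, none of them a call (0.42%, 0.493% and 0.533% of genes called). No member was called between isoforms 10 and 7, 11 and 8 or 12 and 9, where 0.76%, 0.173% and 0.54% of genes were called.

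With the line as the unit, the means of the 12 lines were fitted by N-terminal and C-terminal form. Isoforms 4 to 6 minus 1 to 3 gave -1.56 ± 0.13 (SE; adjusted p = 0.000228) for F10, and the differences of PLAU and PLAUR were -1.52 ± 0.16 (adjusted p = 0.000733) and -1.33 ± 0.21 (adjusted p = 0.00307). In this contrast 1.95% of all genes were called. Between isoforms 7 to 9 and 1 to 3, F10 fell by 2.05 ± 0.13 (adjusted p = 0.000399; 0.52% of genes called), while PLAU differed by -0.67 ± 0.16 (adjusted p = 0.0336), short of a call. F3, high in 1 line, differed by -1.04 ± 0.41 (adjusted p = 0.074) and -0.85 ± 0.41 (adjusted p = 0.19) in these contrasts and was not called. HNF4A itself was 0.45 ± 0.10 higher in isoforms 4 to 6 than in 1 to 3 (adjusted p = 0.012). No member was called between isoforms 10 to 12 and 7 to 9, for the insertion or for the short C-terminus. There limma called 0 (0%), 0 (0%) and 1 (0.00667%) of the 15003 genes, and 1132, 454 and 2724 genes had an unadjusted p under 0.05.

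Among the members under 1 TPM, F7 encodes factor VII, the protease that tissue factor binds. In parental cells it was at 0.0656, 0 and 0 TPM. With isoform 1 it was at 0.381, 0.244 and 0.261 TPM, with isoform 2 at 0.313, 0.221 and 0.141 TPM and with isoform 10 at 0.151, 0.0837 and 0.267 TPM, all above the parental libraries. Elsewhere it was at most 0.162 TPM, and in the exon 1B lines at most 0.0534 TPM. A limma fit with no filter on low values, over 39252 genes, gave differences of 0.34 ± 0.05 (SE; adjusted p = 1.53e-06), 0.26 ± 0.05 (0.000101) and 0.19 ± 0.05 (0.00577). A gene under 1 TPM in every library cannot reach a difference of 1 on the log2(TPM + 1) scale, so F7 could not be called. As ratios of mean TPM these were 13.5-, 10.3- and 7.65-fold, over a parental mean of only 0.0219 TPM. The authors' deposited table gives F7 a log2 fold change of 0.588 with isoform 1 (adjusted p = 0.102), 0.404 with isoform 2 (adjusted p = 0.168) and 0.463 with isoform 10 (adjusted p = 0.014). The mean normalised counts were 17, 13.2 and 9.61. Of these lines, only isoform 10 had an adjusted p under 0.05 there. These fold changes are far smaller than the ratios of mean TPM, and how they were estimated is not given in the sources used here.

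PROZ encodes protein Z, the cofactor with which a serpin blocks factor Xa. It is the neighbour of F10, and its levels were under 0.66 TPM throughout. Parental libraries had 0.343, 0.369 and 0.436 TPM, isoform 1 had 0.179, 0.398 and 0.308 TPM and isoform 2 had 0.233, 0.205 and 0.109 TPM. All libraries of 6 lines, those of isoforms 2, 6, 7, 10, 11 and 12, were below the parental ones, and those of isoform 8, at 0.650, 0.537 and 0.546 TPM, were above them. The shares of all genes wholly below or above the parental libraries were taken over genes averaging 1 TPM or more. They do not cover genes as low as PROZ. In the no-filter limma fit the adjusted p against parental cells was under 0.05 only for isoform 2 (difference -0.23, adjusted p = 0.00968). It was 0.0558 for isoform 6 (-0.22) and 0.0533 for isoform 8 (0.19). For isoforms 7, 10, 11 and 12 it was 0.0718, 0.0539, 0.393 and 0.288. The authors' deposited table gives PROZ an adjusted p of 0.17 with isoform 2 and 0.299 with isoform 8. In the authors' deposited table, PROZ rested on mean normalised counts of 14.8 to 25.6 per comparison.

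TFPI encodes the inhibitor of the tissue factor complex. Its libraries stood at 0.184, 0.107 and 0.642 TPM in parental cells, a wide spread, and at 0.987, 0.550 and 0.610 TPM with isoform 1 and 0.685, 0.529 and 0.547 TPM with isoform 2. Both lines overlapped the parental range because of parental replicate 3 (no-filter difference 0.40 ± 0.13 with isoform 1, adjusted p = 0.0166). F5, the gene of the cofactor factor V, lay between 0.113 and 0.364 TPM, with no adjusted p under 0.05 in any line in the no-filter fit (at an unadjusted p under 0.05, isoforms 2 and 7). TFPI2, a related inhibitor found in matrix, was above 0 in 2 of 39 libraries, at 0.0136 TPM in parental replicate 2 and 0.0199 TPM in an isoform 4 library.

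**Figure D4:**
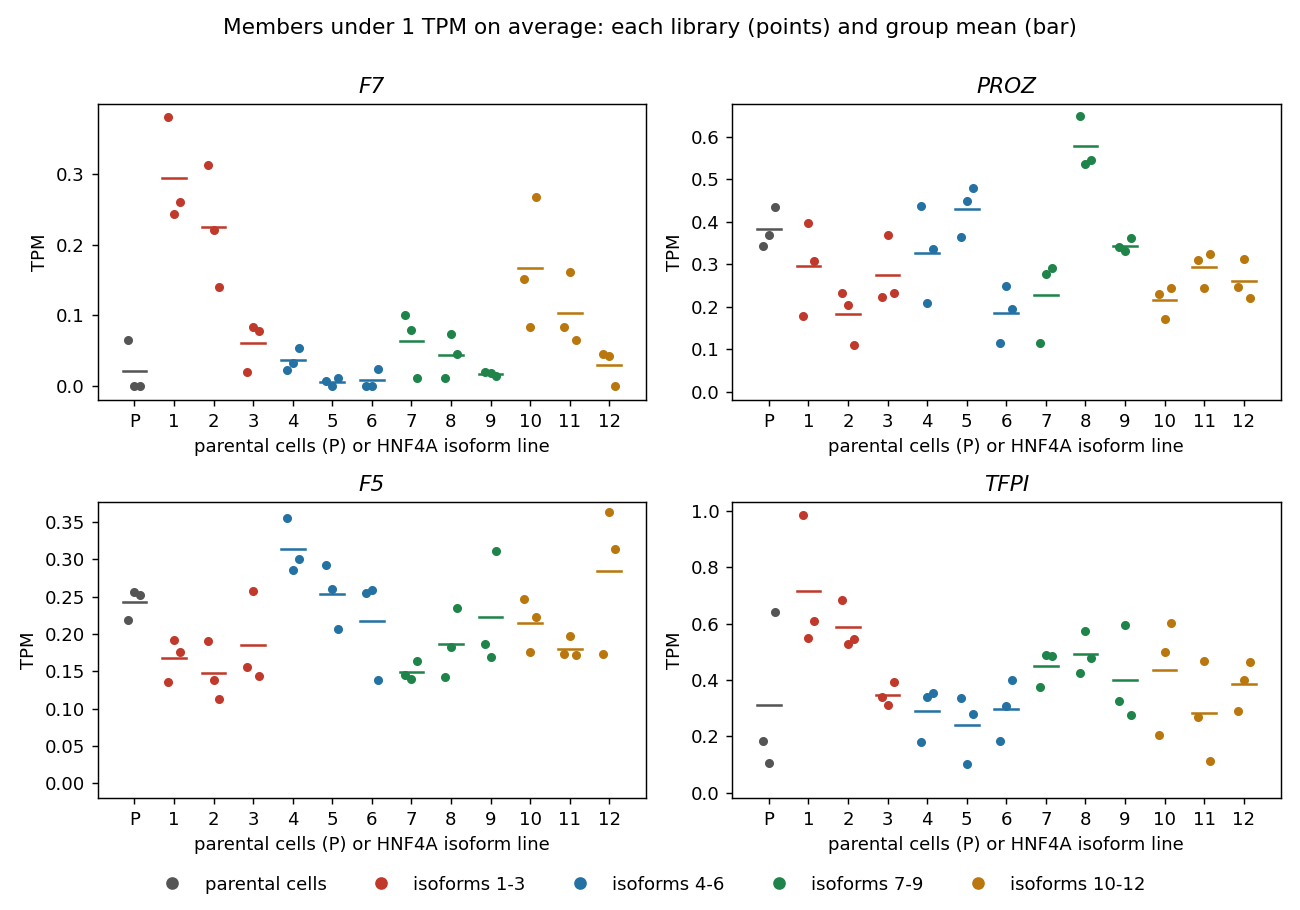
TPM on a linear axis for F7, PROZ, F5 and TFPI, laid out as 13 groups with 3 libraries (points) and their mean (bar). All values are below 1 TPM; F7 is highest in isoforms 1 and 2, PROZ in isoform 8, and the 3 parental libraries of TFPI spread from 0.107 to 0.642 TPM.

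Another 44 genes of the pathway were listed by role, and 20 of them passed the filter. Of the 12 other procoagulant genes, such as fibrinogen chains and factors VIII and IX, only F8, the gene of factor VIII, was tested. It was not called, but its difference with isoform 7 was -0.999 ± 0.093 (SE; adjusted p = 4.82e-10), from a mean of 4.84 TPM in parental cells to 1.92 TPM, just short of the minimum. The 5 genes of the vitamin K cycle and of factor V and VIII secretion, which carboxylate and export coagulation factors, were all tested and none was called. Likewise no call was made among the 2 tested of 8 anticoagulant genes. Tested in the remaining roles were 2 of 4 protease-activated receptors, 7 of 11 genes of fibrinolysis and 3 of 4 membrane proteases and receptors. In all, 4 pathway genes were called in at least 1 line. Per line, 3 of the 20 were called higher with isoform 1, where 4.52% of all tested genes were called. With isoform 2, 3 were called higher and 1 lower (3.73% of all genes). The calls were 1 lower with isoform 4 (0.54%) and 1 higher with each of isoforms 7 (2.08%), 8 (1.41%) and 11 (1.7%). None was called with the rest, where 0.247% (isoform 6) to 1.44% (isoform 10) of all genes were called.

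F2RL1 encodes PAR2, the receptor that the tissue factor complex with factor VIIa, and factor Xa, can cleave. It was at 27.4 to 31.8 TPM in parental cells, at 90.2 to 95.5 TPM with isoform 1 and at 89.6 to 104.3 TPM with isoform 2. F2RL1 rose in 4 lines, by 1.64 (isoform 1), 1.72 (isoform 2), 1.21 (isoform 7) and 1.16 (isoform 11), each ± 0.09 (SE), with adjusted p-values of at most 9.28e-12. F2RL1 was also higher, short of a call, with isoforms 3, 8, 9, 10 and 12, and all libraries of those lines were above the parental ones. Their differences ran from 0.58 (isoform 12) to 0.95 (isoform 8), with limma adjusted p-values of at most 1.89e-05. In the exon 1B lines F2RL1 was at 26.3 to 34.4 TPM, overlapping the parental range.

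ANXA2 and S100A10 encode the chains of the annexin A2 complex, a cell-surface receptor for plasminogen. ANXA2 was at 717.9 to 746.0 TPM in parental cells and rose by 1.04 with isoform 1 and 1.17 with isoform 2, to 1505 TPM ± 46.7 (SD, n = 3) and 1645 TPM ± 63.7 (SD, n = 3). Short of a call, ANXA2 was also higher with isoforms 3 and 7 to 12. Those differences ran from 0.28 (isoform 12) to 0.69 (isoform 11), with limma adjusted p-values of at most 4.43e-05. With the exon 1B lines the adjusted p was at least 0.0656. S100A10 had 13.95 to 14.04 TPM in parental cells, 41.8 to 44.7 TPM with isoform 1, 87.8 to 93.3 TPM with isoform 2 and 28.9 to 30.2 TPM with isoform 8. It rose in these lines by 1.56, 2.62 and 1.03, each ± 0.11 (SE; adjusted p at most 6.48e-09), and fell by 1.01 with isoform 4 (adjusted p = 2.48e-08), to 6.21 to 6.55 TPM. Short of a call, S100A10 was also higher with isoform 7 (24.5 to 31.2 TPM; difference 0.92, adjusted p = 2.58e-08). The same held for isoform 12 (19.0 to 21.0 TPM; difference 0.48, adjusted p = 0.00175). All libraries of the exon 1B lines, and also those of isoform 10 (7.86 to 11.8 TPM; difference -0.47, adjusted p = 0.000677), were below the parental ones for S100A10. HPN encodes hepsin, a membrane protease that can activate factor VII and pro-urokinase. It fell by 1.33 ± 0.12 (SE) with isoform 2 (adjusted p = 1.24e-10), from 6.90 to 7.23 TPM in parental cells to 2.15 to 2.31 TPM. Short of a call, the HPN difference was -0.92 with isoform 7, -0.83 with isoform 1, -0.59 with isoform 8, -0.52 with isoform 12 and -0.39 with isoform 5. The limma adjusted p-values of these lines ran from 3.58e-07 to 0.0291. With isoform 11 HPN was higher, by 0.38 (adjusted p = 0.0129).

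Another 2 genes of the list were removed by the filter and were chosen for description after their values were seen. SERPINB2 encodes PAI-2, an inhibitor of urokinase. It was at 2.02, 2.18 and 1.70 TPM in parental cells, while the 12 lines had means from 0.168 TPM with isoform 2 up to 0.799 TPM with isoform 4. All lines were below all parental libraries, with differences from -1.34 to -0.73 in the no-filter fit and adjusted p-values from 4.36e-09 to 0.000761. SERPINB2 thus differed from the parental cells in the same direction in all lines. As for every gene in this design, an effect of HNF4A and one of deriving a line cannot be told apart. SERPINA5, the gene of the protein C inhibitor, went both ways. It was at 0.536 to 0.692 TPM in parental cells, 1.44 to 1.88 TPM with isoform 4 and up to 1.43 TPM with isoform 5 (no-filter differences 0.70 and 0.53, adjusted p = 5.4e-08 and 8.18e-06). The lowest difference was that of isoform 9, at -0.66 (adjusted p = 7.96e-08), where no library exceeded 0.0861 TPM.

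**Figure D5:**
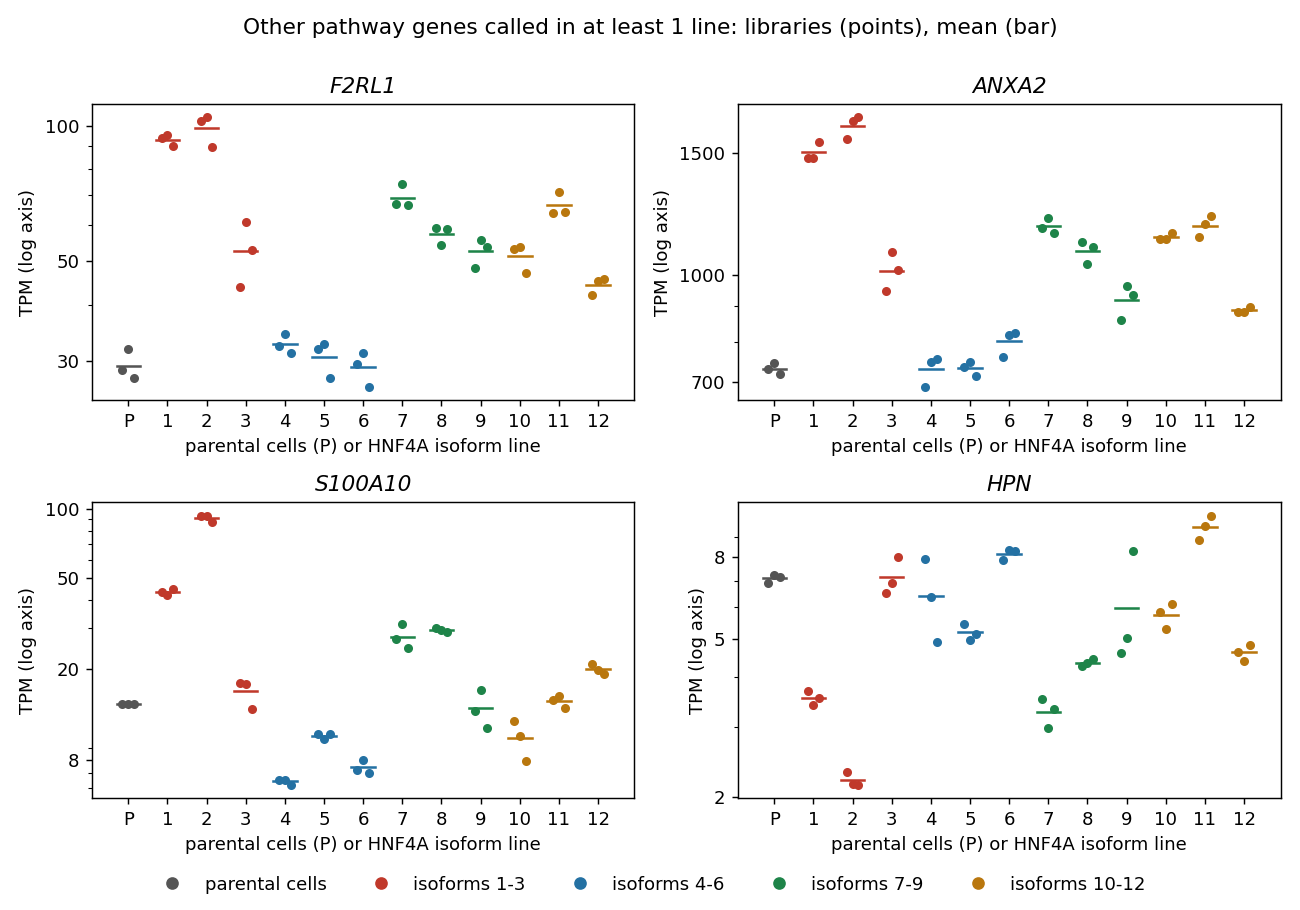
TPM on a log axis for F2RL1, ANXA2, S100A10 and HPN in the 13 groups; points are libraries and bars group means. By group mean, the first 3 are highest in isoforms 1 and 2 and HPN is lowest in isoform 2, and the S100A10 libraries of isoforms 4 to 6 and 10 all lie under the parental ones.

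Over the 13 group means, PLAU and PLAUR had a Pearson correlation of 0.84 on the log2 scale, the highest of the 10 pairs of tested members. The other pairs without F12 had 0.57 to 0.65 and the pairs with F12 -0.65 to -0.52. These values are a description of groups that share an experiment and, for 12 of them, a doxycycline-driven HNF4A. Among 1874 genes whose group means span at least 1, those most like F10 were SEMA6C (0.98), ARID5A (0.98) and HADHB (0.97). For PLAUR they were TIMP2 (0.99), ELOVL1 (0.98) and KLF4 (0.97), and among those most like PLAU were TAGLN (0.86) and MAN1A1 (0.84). F3, whose pattern rests on 1 line, was most like LOC107985092 (0.93), LOC107985647 (0.92) and LINC02582 (0.91). F12 spanned 0.30 and was given no such list.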

How the data were processed

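Per the submitters' processing notes, the tools named are Trimmomatic 0.36, FastQC 0.11.5, kallisto 0.44.0 and DESeq2 1.22.2, with build GRCh38.p12. What each was used for is not given in the sources used here. As final files the authors deposited 13 tables with TPM per library. Their columns summed to between 999972.6 and 999987.7. The 12 tables of the lines also hold, per the file headers, the authors' mean normalised count (a signal), log2 fold change with its error, a test score, p-value and adjusted p-value. These were quoted where named and entered no fit. Mean normalised counts summed to between 50609338 and 56136330 per table. They are normalised and pooled over libraries, so they do not give the depth of a library or group.

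Library columns were assigned by name. The 6 columns of isoforms 4 and 5 were assigned to their group only, because the labels repeat 1 library name for all 3 samples of each. The 12 HNF4A rows were summed. Values were fitted as log2(TPM + 1), a scale that understates changes of low genes, with limma 3.58.1 (R 4.3.3; eBayes with trend) over the 15003 genes averaging 1 TPM or more, in 1 fit of 39 libraries with 26 residual degrees of freedom. Benjamini-Hochberg adjustment ran over all genes within a contrast: 12 against parental cells, 17 between lines and 5 between classes. The class model used the 12 line means. Calls need an adjusted p under 0.05 and a difference of at least 1. The code was tested on simulated data. Named genes are the members, HNF4A, the 3 genes most correlated with each varying member (1 of them is not reported here), and pathway genes called in at least 1 line, at most 2 per role. Members and lists were chosen with earlier results of these data known. No label says that libraries of a group are separate cultures, so p-values measure only the spread between these samples, which may be technical. Alternatives tried were the pseudocount, the filter, scaling, trend, minimum difference, separate fits, a replicate block and leaving out each library.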

Additional observations from a re-analysis of the deposited data

Results flagged for a closer look

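These results were singled out because the difference between lines was itself tested and called. Between isoforms 4 and 1 the differences were -1.96 for F10, -1.62 for PLAUR and -1.42 for PLAU. Isoforms 5 and 2 differed by -2.17 for F3, -2.06 for PLAU, -1.75 for PLAUR and -1.46 for F10. For isoforms 6 and 3 the values were -1.25 for F10 and -1.07 for PLAU. Isoforms 7 and 1 differed in F10 by -2.23, and isoforms 9 and 3 by -1.71. Isoforms 8 and 2 differed by -2.21 for F10, -1.98 for F3, -1.15 for PLAUR and -1.01 for PLAU. F3 differed by 1.72 between isoforms 2 and 1, and PLAUR by -1.06 between isoforms 3 and 1. Over classes, isoforms 4 to 6 minus 1 to 3 gave -1.56 for F10, -1.52 for PLAU and -1.33 for PLAUR, and 7 to 9 minus 1 to 3 gave -2.05 for F10. HNF4A differed by less than 1 in each of these pairs, from -0.35 (isoforms 2 and 1) to 0.74 (isoforms 6 and 3), and its part in the differences was not tested.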

How the results depend on the processing

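Without a minimum difference, calls against parental cells were 17 higher and 19 lower instead of 6 and 3. Between lines they were 14 higher and 29 lower instead of 1 and 16. Of all 15003 tested genes, 3473 (isoform 6) to 9332 (isoform 1) had an unadjusted limma p under 0.05 against parental cells. Between lines this held for 3302 (isoforms 5 and 4) to 8913 (isoforms 4 and 1). The share of all genes called without the minimum is not given here. Leaving out each library in turn gave 6 to 6 higher and 3 to 3 lower against parental cells, 1 to 1 higher and 15 to 16 lower between lines, and 4 to 4 lower between classes. Of the 30 called values, 28 kept their call under all alternatives run; the exceptions were PLAU between isoforms 6 and 3 and between 8 and 2. Of 54 values with an adjusted p under 0.05 but no call, 19 lost it at least once, and none of these called or uncalled values with an adjusted p under 0.05 changed sign. With a pseudocount of 0.1, F3 was also called between isoforms 4 and 1 (-1.03). Median-of-ratios scaling moved the median of all genes by 0.12 with isoform 1 and 0.11 with isoform 2. A fit with the replicate number as a block, over the 10 lines with numbers, gave 6 higher and 1 lower against parental cells and 1 higher and 9 lower between lines, as without the block. The labels give same-numbered libraries only the number in common. Their deviations from the group means correlated between -0.175 and 0.232, and 38 of 165 pairs were over 0.1. The median was 0.054, beside -0.029 for libraries of different numbers, and 29 of 33 libraries correlated best with their own number. Whether the number marks a batch was not tested, and the main fit has no term for it. Depth per library is unknown, which limits what can be said of F7, PROZ, F5, TFPI and TFPI2.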
